A study of Mus musculus with 15 samples.

Results

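The 10 genes at the core of the NRF2 antioxidant response were followed across mouse liver RNA-seq libraries: the transcription factor gene Nfe2l2, its inhibitor Keap1 and the response genes Nqo1, Gclc, Gclm, Hmox1, Txnrd1, Srxn1, Osgin1 and Slc7a11. They were taken by symbol. All 10 were among the 24411 genes of the deposited count tables, and all 10 passed the filter on low counts, which kept 13055 genes.

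The study sequenced poly(A) RNA of mouse liver and, in its design text, contrasts wild type, Lats knockout and Yap overexpression. The 15 libraries fall into 6 labelled LATS KO, 5 labelled Yap OE and 4 labelled TdTomato, a red fluorescent protein used as a marker, which serve here as the controls. The Hippo pathway kinases LATS1 and LATS2 keep the coactivator YAP out of the nucleus. The labels give no strain, age, sex, Cre driver, delivery route, time or source of the replicates. The extraction text describes mice of another design, and no animal detail rests on it. Whether the replicates of a group are different animals is not stated, so p-values cover the spread among the libraries alone, which may be technical.

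NRF2 is a transcription factor that KEAP1, its sensor and adaptor protein, keeps at low levels by marking it for degradation. Oxidants and electrophiles modify cysteines of KEAP1, NRF2 then accumulates, pairs with a small MAF protein and binds antioxidant response elements near its target genes. In liver the targets make glutathione, regenerate thioredoxin, detoxify quinones and break down haem. NRF2 is controlled largely at the level of its protein, which RNA-seq does not measure.

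Gene counts ranged from 6166680 to 28225360 per library. TdTomato 1 and LATS KO 3 stood apart before any comparison, with 78.5% and 89.9% of reads unmapped, against 2.53% to 16.7% in the other libraries. Reads were found on 8501 genes in TdTomato 1 and 9710 genes in LATS KO 3, and on 13372 or more elsewhere. Some values of each member are therefore also given from a fit without TdTomato 1 and LATS KO 3. Levels are given as CPM, a gene's count scaled to the size of its library. Among markers of other cells, all 9 macrophage and monocyte markers rose in LATS KO and in Yap OE against TdTomato, and their summed level was 106 to 787 CPM in LATS KO, 285 to 510.5 CPM in Yap OE and 0.0774 to 8.76 CPM in TdTomato. Of these markers Lgals3, Itgam and Ccr2 had 3 counts each over TdTomato and passed the filter only through the other groups. Their calls are no support for that count. The summed hepatocyte markers, led by albumin, were 39759 to 170267 CPM in LATS KO, 77071 to 132602 CPM in Yap OE and 93311 to 167396 CPM in TdTomato, and 2 of those 7 markers fell in Yap OE. In such bulk tissue, fewer cells of a type and less RNA per cell cannot be told apart.

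Taken as a list, 4 of the 10 genes rose in Yap OE against TdTomato (Nfe2l2, Nqo1, Osgin1 and Slc7a11) and none fell. Slc7a11 was at 0 counts in all TdTomato libraries and passed the filter only through LATS KO and Yap OE, so its call is no support for the tally, and 3 of the other 9 members rose. Over all genes tested, 28.7% were called in that comparison, 17.9% higher and 10.8% lower. In LATS KO against TdTomato none of the 10 passed the edgeR test at an adjusted p under 0.05, where 11.0% of all genes did, 1311 genes higher and 127 genes or 0.973% lower. At an unadjusted p under 0.05 it was 5 members, Slc7a11 among them. That count has no share over all genes beside it and is not read as a result about the list. By other tools 4 members (DESeq2) and 1 member (limma voom) passed at an adjusted p under 0.05, and these tools called 22.2% and 26.8% of all genes there. Yap OE against LATS KO had 1 member higher, Osgin1, where 0.988% of all genes were called, 0.498% higher and 0.490% lower. The median log2 fold change of the 10 genes was 0.50 in LATS KO and 1.06 in Yap OE against TdTomato, and 0.39 between Yap OE and LATS KO, beside medians over all genes of 0.13, 0.17 and -0.03. Both comparisons with TdTomato share the same 4 control libraries.

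**Figure D1:**
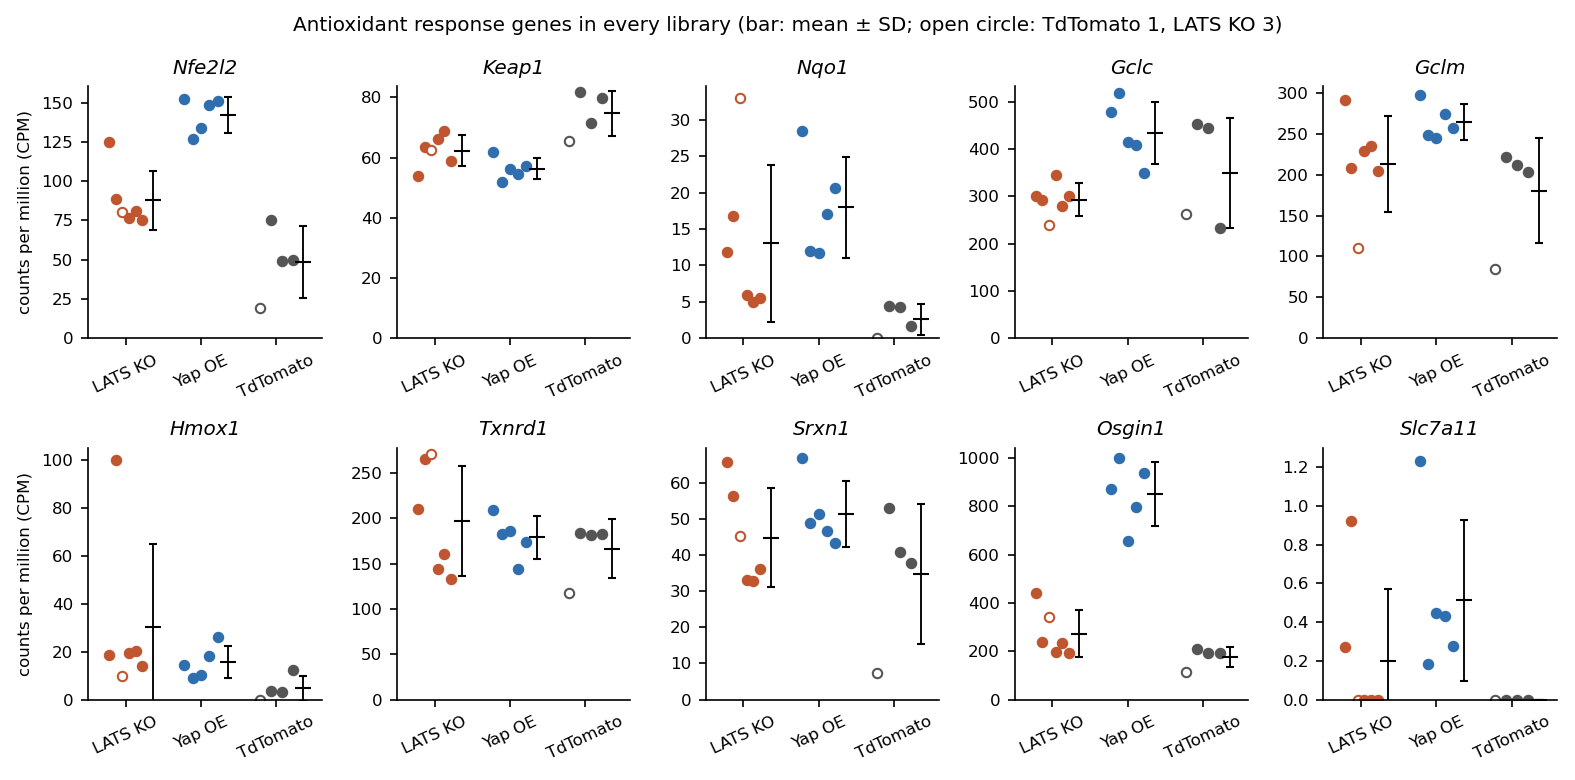
Level of each antioxidant response gene in every library, in CPM on a linear axis that starts at 0, with LATS KO, Yap OE and TdTomato side by side. Points are libraries, open circles are TdTomato 1 and LATS KO 3, and the bar beside each group is the mean ± SD, not drawn below 0; Osgin1 is at 659 to 999.5 CPM in Yap OE and at most 209 CPM in TdTomato.

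The promoters of 4 members are shown as examples picked by their response in these data, and sequence was not tested against response. Osgin1 and Nfe2l2 rose in Yap OE in all 24 alternative fits. Srxn1 holds 2 matches to the element but did not pass the test, and Nqo1 rose without a match. Not shown are Gclm and Txnrd1, which hold a match without a call, and Slc7a11, which holds a match and was called in Yap OE. Each sequence shown is the 250 bases before the RefSeq start of the gene in GRCm38.p6, the assembly also called mm10, read 5′ to 3′ on the gene's strand. Capitals mark a match on either strand to the antioxidant response element core, searched as TGACNNNGC or TGAGNNNGC. The windows are chr8:119436897-119437146 (plus strand) for Osgin1, chr2:75704664-75704913 (minus strand) for Nfe2l2, chr2:152105274-152105523 (plus strand) for Srxn1 and chr8:107403206-107403455 (minus strand) for Nqo1.
Osgin1: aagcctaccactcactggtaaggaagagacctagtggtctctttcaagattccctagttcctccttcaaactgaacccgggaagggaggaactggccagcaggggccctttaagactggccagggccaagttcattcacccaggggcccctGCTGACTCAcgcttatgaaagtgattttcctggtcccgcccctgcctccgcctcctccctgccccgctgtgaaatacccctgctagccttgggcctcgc
Nfe2l2: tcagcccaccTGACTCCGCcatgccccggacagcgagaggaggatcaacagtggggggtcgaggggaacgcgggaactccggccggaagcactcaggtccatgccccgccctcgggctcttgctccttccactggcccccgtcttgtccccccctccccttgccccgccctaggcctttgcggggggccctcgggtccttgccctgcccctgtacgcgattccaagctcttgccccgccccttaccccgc
Srxn1: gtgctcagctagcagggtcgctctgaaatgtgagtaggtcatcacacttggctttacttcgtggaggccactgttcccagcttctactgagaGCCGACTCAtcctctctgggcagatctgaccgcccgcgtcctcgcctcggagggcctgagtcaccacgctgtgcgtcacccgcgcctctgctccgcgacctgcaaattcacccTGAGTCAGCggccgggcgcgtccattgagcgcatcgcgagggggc
Nqo1: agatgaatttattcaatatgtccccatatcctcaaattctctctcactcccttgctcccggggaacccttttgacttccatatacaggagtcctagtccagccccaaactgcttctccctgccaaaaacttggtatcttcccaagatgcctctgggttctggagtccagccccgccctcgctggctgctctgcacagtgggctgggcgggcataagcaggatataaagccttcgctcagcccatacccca

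The Osgin1 window holds TGAGTCAGC on the opposite strand, 91 to 99 bases before the start. That window lies within the annotated span of Osgin1, which begins at 119434124, and shares 29 bases with an Osgin1 exon. In Nfe2l2 the match is TGACTCCGC on the same strand, 232 to 240 bases before the start, in a stretch that shares 144 bases with an exon of the neighbouring gene E030042O20Rik. Srxn1 holds TGAGTCAGC on the same strand at 37 to 45 bases and TGAGTCGGC on the opposite strand at 150 to 158 bases. TGAGTCAGC contains TGAGTCA, the site of AP-1 factors, so the motifs overlap there, and Srxn1 holds a further TGAGTCA at 96 to 102 bases, left in lower case. No match lies in the Nqo1 or Keap1 window, which says only that these letters are not in those 250 bases.

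Of the 10 members, 8 had a promoter entry, and 6 of these 8 held a match: Nfe2l2, Gclm, Txnrd1, Srxn1, Osgin1 and Slc7a11. Gclc and Hmox1 had none to search. These 8 members had 10 windows, of which 6 held a match, and for Txnrd1 it was 1 of 3 windows. Of all 32851 promoter windows of that length, 23.0% held TGACNNNGC or TGAGNNNGC, 10.2% the first form, 14.4% the second and 4.46% TGAGTCA. A match is a description of letters and not a measured binding site.

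Nfe2l2 (chromosome 2, 75675513 to 75704641, minus strand, mm10), which encodes NRF2 itself, was the member that separated all 3 groups. It was at 125, 88.4, 80.5, 76.6, 80.9 and 75.5 CPM in LATS KO 1 to 6, at 152, 127, 134, 148 and 151 CPM in Yap OE 1 to 5, and at 19.2, 75.0, 49.3 and 49.98 CPM in TdTomato 1 to 4. Every Yap OE library was above every LATS KO library, and every LATS KO library above every TdTomato library, although LATS KO 6 exceeded TdTomato 2 by less than 1 CPM. The log2 fold change in Yap OE against TdTomato was 1.56 ± 0.30 (SE), a 2.94-fold rise (adjusted p = 0.0032, edgeR). It held without each library in turn, with a lowest value of 1.29 without TdTomato 1 and a highest of 1.85 without TdTomato 2.

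In LATS KO against TdTomato Nfe2l2 had a log2 fold change of 0.86 ± 0.28 that missed the threshold (adjusted p = 0.065, edgeR). The Yap OE to LATS KO difference of 0.70 ± 0.26 missed it too (adjusted p = 0.21, edgeR). Without TdTomato 1 and LATS KO 3 the LATS KO value was 0.62 (adjusted p = 0.057, edgeR), and the difference between Yap OE and LATS KO was 0.67 and passed (adjusted p = 0.028, edgeR).

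Keap1 (chromosome 9, 21229730 to 21239361, minus strand), the inhibitor, ran the other way. It was at 54.0, 63.4, 62.5, 66.3, 68.7 and 58.9 CPM in LATS KO 1 to 6, at 61.7, 52.0, 56.1, 54.6 and 57.3 CPM in Yap OE 1 to 5, and at 65.5, 81.8, 71.6 and 80.0 CPM in TdTomato 1 to 4. All Yap OE libraries lay below all TdTomato libraries, while LATS KO overlapped TdTomato. The log2 fold change of -0.41 ± 0.15 in Yap OE stood at the threshold (adjusted p = 0.0501, edgeR) and was called lower without TdTomato 1 and LATS KO 3, at -0.47 (adjusted p = 0.0092, edgeR). In LATS KO it was -0.26 ± 0.14 (adjusted p = 0.27, edgeR). Against TdTomato, the negative log2 fold changes of the 10 members in the fit of all libraries were those of Keap1 in both groups and of Gclc in LATS KO.

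Osgin1 (chromosome 8, 119434124 to 119446256, plus strand), an oxidative stress induced growth inhibitor, had the smallest adjusted p of the 10 between Yap OE and LATS KO. Its level was 439, 237, 342, 197, 235 and 191 CPM in LATS KO 1 to 6, 871, 999.5, 659, 797 and 937 CPM in Yap OE 1 to 5, and 113, 209, 191 and 192 CPM in TdTomato 1 to 4. The lowest Yap OE library was above the highest of all the others, and LATS KO overlapped TdTomato. It rose 4.85-fold in Yap OE against TdTomato (log2 2.28 ± 0.30, adjusted p = 0.00074, edgeR) and 3.12-fold against LATS KO (log2 1.64 ± 0.26, adjusted p = 0.0067, edgeR).

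In LATS KO against TdTomato Osgin1 had a log2 fold change of 0.64 ± 0.28 (adjusted p = 0.16, edgeR). Leaving out TdTomato 1 and LATS KO 3 gave 2.11 and 1.71 for Yap OE against TdTomato and LATS KO, both past the threshold. With the replicate number as a block, the difference from LATS KO was 1.57 and no longer passed (adjusted p = 0.13, edgeR).

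Nqo1 (chromosome 8, 107388225 to 107403206, minus strand) encodes a quinone reductase and is a standard readout of NRF2 activity. It was at 11.9, 16.8, 33.0, 5.88, 4.99 and 5.53 CPM in LATS KO 1 to 6, at 28.4, 11.97, 11.7, 17.1 and 20.7 CPM in Yap OE 1 to 5, and at 0, 4.36, 4.21 and 1.68 CPM in TdTomato 1 to 4. The 0 in TdTomato 1 allows up to 0.232 CPM (3 counts, counting error only). Both groups lay wholly above TdTomato, with LATS KO 5 at 4.99 CPM close to TdTomato 2 at 4.36 CPM.

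The rise of Nqo1 in Yap OE was 7.004-fold (log2 2.81 ± 0.91, adjusted p = 0.031, edgeR). It missed the threshold without TdTomato 4, Yap OE 1, Yap OE 4 or Yap OE 5 (adjusted p = 0.083, 0.069, 0.054 and 0.052, edgeR) and passed without TdTomato 1 and LATS KO 3 (log2 2.40, adjusted p = 0.0032, edgeR). In LATS KO the log2 fold change was 2.34 ± 0.87 (adjusted p = 0.099, edgeR), and 1.41 without TdTomato 1 and LATS KO 3 (adjusted p = 0.067, edgeR). Between Yap OE and LATS KO it was 0.47 ± 0.74 (adjusted p = 0.88, edgeR), with a 95% interval from -0.97 to 1.92.

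Hmox1 (chromosome 8, 75093621 to 75100589, plus strand), which encodes haem oxygenase, the enzyme that opens the haem ring, was highest in LATS KO 2. It was at 18.6, 99.9, 9.67, 19.6, 20.4 and 14.2 CPM in LATS KO 1 to 6, at 14.6, 9.15, 10.4, 18.2 and 26.1 CPM in Yap OE 1 to 5, and at 0, 3.64, 3.098 and 12.3 CPM in TdTomato 1 to 4. TdTomato 4 lay within the range of both other groups, so neither was separate from TdTomato. The log2 fold change was 2.67 ± 0.96 in LATS KO (adjusted p = 0.086, edgeR) and 1.71 ± 0.93 in Yap OE (adjusted p = 0.19, edgeR).

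The LATS KO value of Hmox1 was 1.79 without LATS KO 2 (adjusted p = 0.25, edgeR) and 3.75 without TdTomato 4 (adjusted p = 0.059, edgeR). Without TdTomato 1 and LATS KO 3 it was 2.44 and was called higher (adjusted p = 0.040, edgeR), a fit in which LATS KO 2 remained. The Yap OE value of Hmox1 in that fit was 1.29 (adjusted p = 0.14, edgeR). Hmox1 is abundant in macrophages that clear red cells, and in each group the library with most Hmox1 also had most of their markers. LATS KO 2 had the highest summed macrophage and monocyte markers, at 787 CPM, and the highest summed Kupffer cell markers, at 1027 CPM. Yap OE 5, the Yap OE library with most Hmox1, had the highest sums of its group, at 510.5 and 667 CPM, and TdTomato 4 the highest of the controls, at 8.76 and 17.8 CPM. Below these top libraries the order did not hold throughout: LATS KO 1 had 18.6 CPM of Hmox1 with the lowest sum of both lists in its group, 196 CPM, while LATS KO 3 and LATS KO 6 had 9.67 and 14.2 CPM of Hmox1 with 332 CPM of markers each. All 9 Kupffer cell markers rose in LATS KO and 8 of 9 in Yap OE, and none of these 18 markers was at 0 counts in all TdTomato libraries. Their part in the Hmox1 values was not tested.

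**Figure D2:**
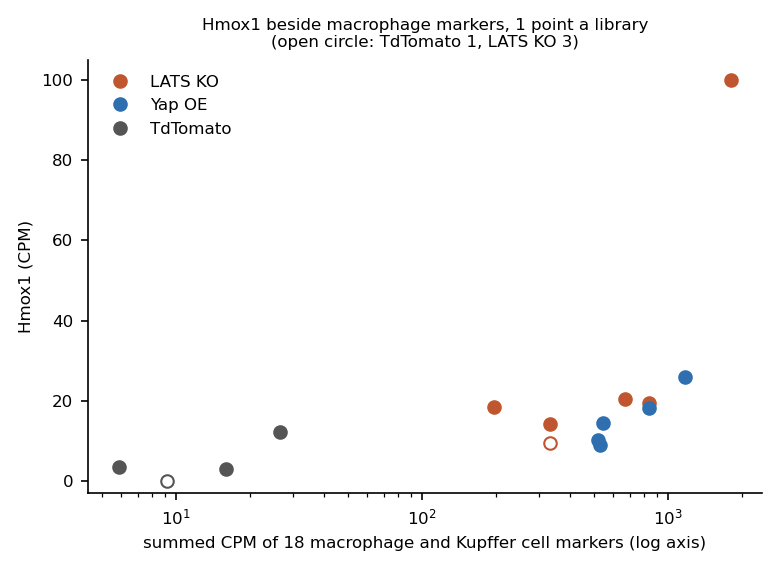
Hmox1 in CPM (linear axis) against the summed CPM of 18 macrophage and Kupffer cell markers (log axis), 1 point a library, with open circles for TdTomato 1 and LATS KO 3. LATS KO 2, at 99.9 CPM of Hmox1 and 1814 CPM of markers, is the point at the upper right, and the TdTomato libraries are at 26.6 CPM of markers or less.

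The glutathione members differed less. Gclc (chromosome 9, 77754535 to 77794485, plus strand), the catalytic subunit of the enzyme that starts glutathione synthesis, was at 300.3, 292, 240.2, 345, 279 and 301 CPM in LATS KO 1 to 6, at 478, 519, 415, 408 and 349 CPM in Yap OE 1 to 5, and at 262, 453, 446 and 234 CPM in TdTomato 1 to 4. All Yap OE libraries were above all LATS KO libraries, by 349 against 345 CPM at the nearest point. TdTomato, at 234 to 453 CPM, overlapped both, and Yap OE 1 and Yap OE 2 lay above every TdTomato library. No comparison passed: the log2 fold change was -0.25 ± 0.23 in LATS KO and 0.32 ± 0.24 in Yap OE against TdTomato (adjusted p = 0.55 and 0.36, edgeR), and 0.57 ± 0.21 between Yap OE and LATS KO (adjusted p = 0.22, edgeR).

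Gclm (chromosome 3, 122245557 to 122270732, plus strand), the modifier subunit of that enzyme, was at 291, 209, 110.2, 229, 235 and 205 CPM in LATS KO 1 to 6, at 298, 248, 245, 275 and 258 CPM in Yap OE 1 to 5, and at 84.9, 221, 212 and 203 CPM in TdTomato 1 to 4. Yap OE lay wholly above TdTomato, and the lowest values of the other groups belonged to LATS KO 3 and TdTomato 1. Its log2 fold change was 0.24 ± 0.28 in LATS KO and 0.55 ± 0.29 in Yap OE against TdTomato (adjusted p = 0.66 and 0.18, edgeR). Without TdTomato 1 and LATS KO 3 the Yap OE value was 0.32 (adjusted p = 0.13, edgeR).

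Slc7a11 (chromosome 3, 49892526 to 50443614, minus strand), the cystine transporter that supplies cysteine for glutathione, was near the limit of detection. It was at 0.271 and 0.921 CPM in LATS KO 1 and 2 and at 0 in LATS KO 3 to 6, at 1.23, 0.185, 0.449, 0.429 and 0.274 CPM in Yap OE 1 to 5, and at 0 in all 4 TdTomato libraries. In sums these are 35 counts in LATS KO, 76 counts in Yap OE and 0 counts in TdTomato. A count of 0 allowed 0.132 to 0.333 CPM in those libraries, a range that holds the levels of Yap OE 2 and Yap OE 5. Slc7a11 was called higher in Yap OE against TdTomato (adjusted p = 0.034, edgeR), at least 11.7-fold when TdTomato is set to 3 counts over the group, and the same bound in LATS KO was 6.58-fold without passing the test (adjusted p = 0.13, edgeR). The call was lost without any 1 of the TdTomato libraries, with adjusted p from 0.053 to 0.074, and the gene failed the filter without LATS KO 2, Yap OE 1, Yap OE 3 or Yap OE 4. In the fit without both TdTomato 1 and LATS KO 3 the gene was called higher in Yap OE (adjusted p = 0.041, edgeR) and not in LATS KO (adjusted p = 0.14, edgeR).

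In the thioredoxin branch no comparison passed. Txnrd1 (chromosome 10, 82833951 to 82897712, plus strand), the cytosolic thioredoxin reductase, was at 211, 265, 271, 144, 161 and 133 CPM in LATS KO 1 to 6, at 209.5, 182, 186, 144 and 174 CPM in Yap OE 1 to 5, and at 118, 184, 182 and 182 CPM in TdTomato 1 to 4. The groups overlapped throughout, and LATS KO 1 to 3 were the highest of their group. Its log2 fold change was 0.25 ± 0.24 in LATS KO and 0.11 ± 0.25 in Yap OE against TdTomato (adjusted p = 0.58 and 0.80, edgeR), and the Yap OE value was -0.029 without TdTomato 1.

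Srxn1 (chromosome 2, 152105516 to 152111376, plus strand) encodes sulfiredoxin, which repairs over-oxidised peroxiredoxins. It was at 65.8, 56.3, 45.2, 33.1, 32.7 and 36.1 CPM in LATS KO 1 to 6, at 66.8, 48.9, 51.3, 46.6 and 43.2 CPM in Yap OE 1 to 5, and at 7.28, 53.0, 40.7 and 37.9 CPM in TdTomato 1 to 4. Apart from TdTomato 1, the groups covered much the same range. The log2 fold change was 0.37 ± 0.38 in LATS KO and 0.56 ± 0.40 in Yap OE (adjusted p = 0.61 and 0.32, edgeR), and 0.03 and 0.23 without TdTomato 1 and LATS KO 3.

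**Figure D3:**
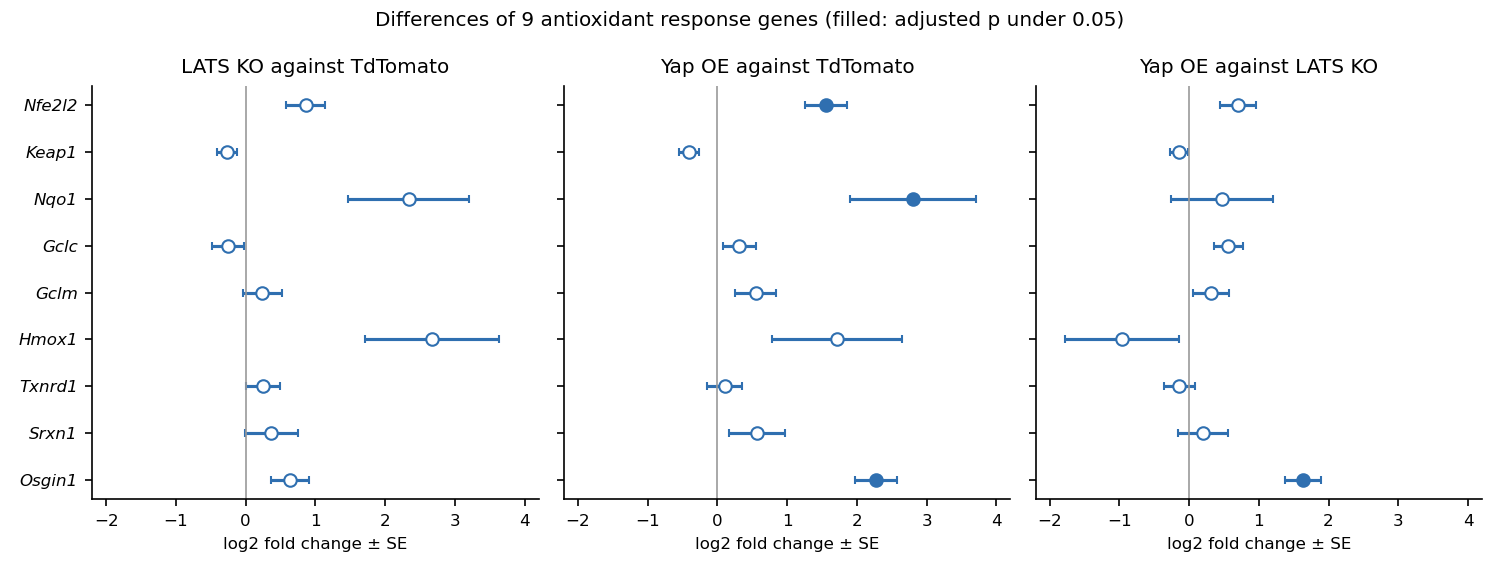
Log2 fold change ± SE of 9 antioxidant response genes in the 3 comparisons, on a linear axis of log2 values, with filled points for an adjusted p under 0.05 in edgeR. Slc7a11 is left out because TdTomato holds 0 counts of it. Filled are Nfe2l2, Nqo1 and Osgin1 in Yap OE against TdTomato and Osgin1 in Yap OE against LATS KO.

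Set per length, the members kept a wide range of levels within each group. Per kilobase of exon, Osgin1 averaged 102 ± 36.5 CPM in LATS KO, 319 ± 49.4 CPM in Yap OE and 65.8 ± 16.1 CPM in TdTomato (SD, n = 6, 5 and 4), and Gclc averaged 77.8 ± 9.08, 115 ± 17.5 and 92.6 ± 31.0 CPM in the same groups. Gclc was thus the highest of the 10 in TdTomato and Osgin1 in Yap OE, while in LATS KO and in TdTomato the spreads of these 2 genes overlapped. Gclm, Txnrd1 and Nfe2l2 followed in LATS KO at 33.9 ± 9.40, 27.9 ± 8.58 and 23.1 ± 4.91 CPM per kilobase, with spreads that overlapped. In Yap OE the same genes averaged 42.1 ± 3.48, 25.3 ± 3.36 and 37.5 ± 3.03 CPM per kilobase, and in TdTomato 28.7 ± 10.2, 23.5 ± 4.58 and 12.7 ± 6.02 CPM per kilobase. Slc7a11 was lowest in all 3 groups, at 0.0143 ± 0.0266 CPM per kilobase in LATS KO, 0.0369 ± 0.0299 in Yap OE and 0 in TdTomato.

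Within LATS KO the libraries were uneven. In Nqo1, Txnrd1, Srxn1 and Osgin1 each of LATS KO 1 to 3 was above each of LATS KO 4 to 6, though for Osgin1 only by 237 against 235 CPM. The share of all genes with that order was not counted, so it is not shown to be particular to these genes. The summed cholangiocyte markers had the same order, at 4387, 1938 and 1346 CPM in LATS KO 1 to 3 and 202, 92.1 and 128 CPM in LATS KO 4 to 6, beside 3754 to 6221 CPM in Yap OE and 24.2 to 47.9 CPM in TdTomato. No label separates these libraries, no group was made of them, and the part of the markers in the 4 genes was not tested.

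The genes whose profile over the 15 libraries was most like a member were found among 9402 genes by the root mean square difference of log2 CPM profiles scaled to mean 0 and SD 1. For Nfe2l2 these were Rarg (0.222), Nfkbie (0.265) and Rasgrp3 (0.275), and for Osgin1 Dos (0.253), Enah (0.302) and Marveld2 (0.304). The nearest profiles of all belonged to Nqo1, with Lmnb1 (0.140), Rbl1 (0.158) and E2f1 (0.169), followed by Srxn1 with Stt3b (0.172). Hmox1 was nearest to Il18bp (0.264), Actr3 (0.273) and Grn (0.278), and Gclm to Cnot7 (0.254), Endov (0.257) and Rela (0.260). For Keap1, Slc7a11, Txnrd1 and Gclc the nearest profiles were farther off, Rnf187 (0.401), Brip1os (0.400), Lrrfip1 (0.431) and Ddx58 (0.506). Among the members themselves the closest pair was Nfe2l2 and Nqo1 (0.437), followed by Nqo1 and Srxn1 (0.468) and by Nfe2l2 and Osgin1 (0.496). All these profiles share the same libraries and depths, TdTomato 1 included.

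Beyond the 10 members, 8 lists of related genes held 109 genes, of which 107 were tested. In Yap OE against TdTomato 23 of them rose and 26 fell, which is 21.5% and 24.3% of those tested, beside 17.9% and 10.8% of all genes. The risen genes include Gpx2 and Ggt1, at 0 counts in TdTomato, and Gpx3, Phgdh and Vldlr, at 2 counts there. The calls of these genes are no support for the tally, nor for those of the other comparisons given next. In LATS KO against TdTomato 10 rose and 1 fell (9.35% and 0.935%), and between Yap OE and LATS KO 2 were higher and 1 lower (1.87% and 0.935%). In Yap OE the risen share of the wider lists was thus near that of all genes, and the fallen share was above it. Their joint median log2 fold change was -0.27 in Yap OE and -0.13 in LATS KO against TdTomato, below the medians over all genes of 0.17 and 0.13. With RLE factors, which move the median of all genes in Yap OE to 0.34, 24 rose and 19 fell there and the joint median was -0.10, while voom gave 30 and 51. The fit with RLE factors called 20.5% of all genes higher and 8.64% lower in Yap OE. In LATS KO the position of the joint median turned with voom, at 0.07 beside 0.03 over all genes, with 18 risen and 5 fallen. Voom called 36% of all genes higher and 32% lower in Yap OE, and 16.1% higher and 10.7% lower in LATS KO. Hepatocyte markers had a median of -1.41 in Yap OE and -0.51 in LATS KO, and their part in these counts was not tested. Without TdTomato 1 and LATS KO 3 the counts were 27 risen and 31 fallen in Yap OE, 16 and 2 in LATS KO, and 7 and 11 between Yap OE and LATS KO, of 108 tested. Of all genes that fit called 27.2% higher and 21.2% lower in Yap OE, 13.7% and 3.24% in LATS KO, and 5.56% and 7.17% between Yap OE and LATS KO; the lists' shares in LATS KO were 14.8% and 1.85%, and their shares in Yap OE lay below that figure among risen genes and above it among fallen ones, at 28.7%.

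**Figure D4:**
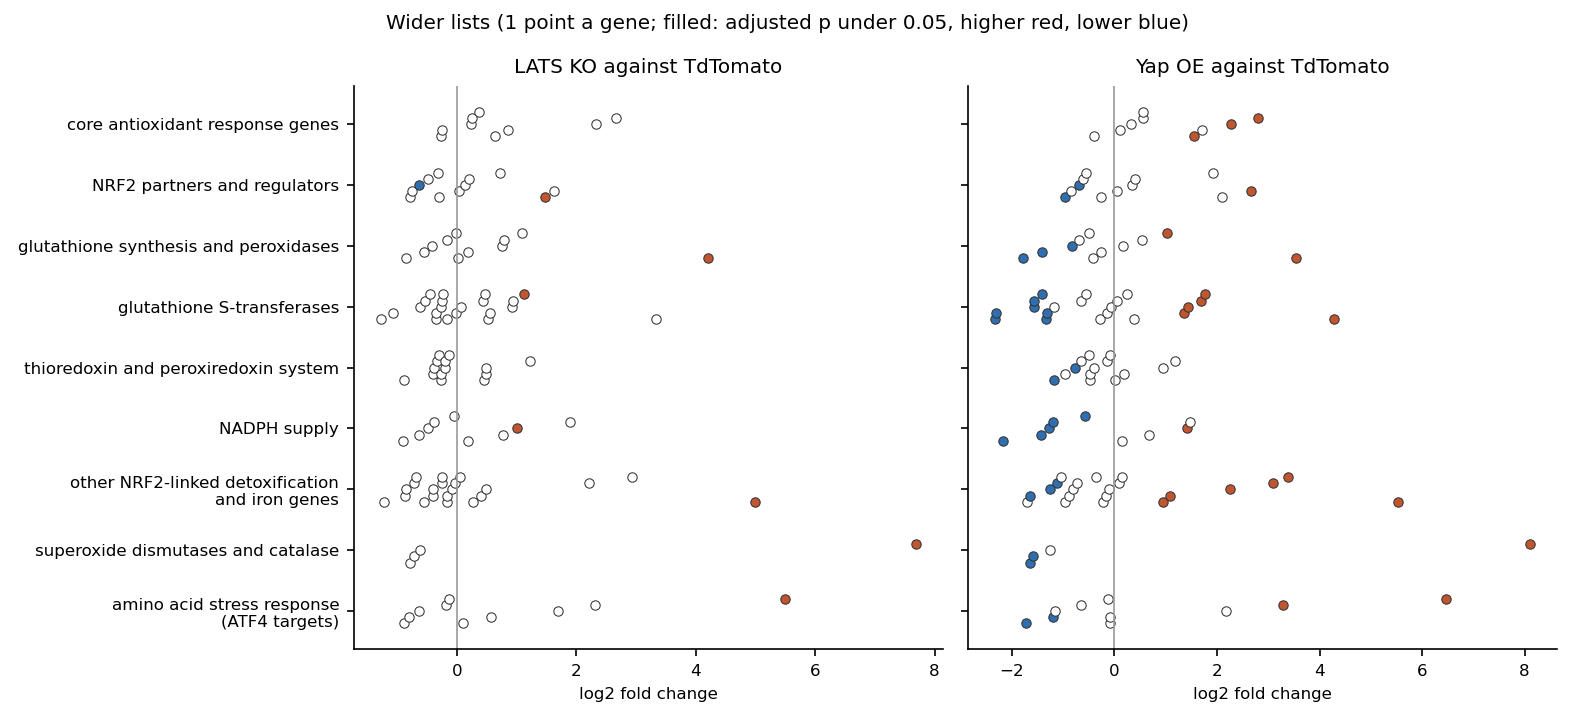
Log2 fold change (linear axis of log2 values) of each tested gene of the core members and of 8 wider lists, against TdTomato, with filled points for an adjusted p under 0.05 in edgeR. Genes with 3 or fewer counts in TdTomato are left out; in Yap OE filled points lie on both sides of 0 in most wider lists, and in LATS KO 1 filled point lies below 0, Nfe2l1.

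Of 12 partners and regulators of NRF2, 1 rose and 2 fell in Yap OE and 1 rose and 1 fell in LATS KO, with 2 risen and 1 fallen in Yap OE under RLE factors. Maff, a small MAF protein that pairs with NRF2, averaged 21.1 ± 8.89 CPM in LATS KO, 48.1 ± 7.34 CPM in Yap OE and 7.57 ± 4.07 CPM in TdTomato (SD, n = 6, 5 and 4), and rose in LATS KO (log2 1.48 ± 0.38, adjusted p = 0.022, edgeR) and in Yap OE (log2 2.67 ± 0.41, adjusted p = 0.0015, edgeR). Mafg, another small MAF gene, fell in Yap OE (log2 -0.96, adjusted p = 0.045, edgeR), a call lost with RLE factors, and Mafk had 1.93 without passing (adjusted p = 0.070, edgeR). Mafk was called higher in LATS KO and in Yap OE without TdTomato 1 and LATS KO 3 (log2 1.17 and 1.52, adjusted p = 0.022 and 0.0026, edgeR). Nfe2l1, which encodes the related factor NRF1, fell in LATS KO and in Yap OE (log2 -0.64 ± 0.15 and -0.69 ± 0.16, adjusted p = 0.017 and 0.0073, edgeR). Sqstm1, whose product p62 competes for KEAP1 and which was the most abundant of the list, averaged 449 ± 123 CPM in LATS KO, 462 ± 55.4 CPM in Yap OE and 557 ± 51.9 CPM in TdTomato and did not pass in any comparison.

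Among 14 tested genes of glutathione synthesis and the glutathione peroxidases, 5 rose and 3 fell in Yap OE and 2 rose in LATS KO, or 4 with RLE factors. With RLE factors 11.2% of all genes were called higher in LATS KO. Gpx1, the main cytosolic peroxidase, averaged 684 ± 159 CPM in Yap OE and 2360.1 ± 478 CPM in TdTomato and fell (log2 -1.79, adjusted p = 0.012, edgeR), with a log2 fold change of -0.85 in LATS KO (adjusted p = 0.25, edgeR). Gpx3, Gpx2 and Ggt1, which rose, were scarce in TdTomato. Gpx3, the secreted peroxidase, had 1721 counts in LATS KO, 544 counts in Yap OE and 2 counts in TdTomato, a CPM ratio of 485 (95% interval 134 to 4011) in LATS KO and 126 (34.6 to 1039.6) in Yap OE. Gpx2, the epithelial peroxidase, and Ggt1, which breaks down extracellular glutathione, were at 0 counts in TdTomato. They were called higher in Yap OE, at least 19.1-fold and 12.6-fold (adjusted p = 0.0040 and 0.0049, edgeR). Gpx2 was also higher in Yap OE than in LATS KO (adjusted p = 0.033, edgeR), where it had 4 counts. Gpx3, Gpx2 and Ggt1 passed the filter only through groups in which they were higher, so their calls are no support for the counts of risen genes. In Yap OE 5 of 6 tested cholangiocyte markers and 6 of 6 stellate cell and fibroblast markers rose too, and their part in these rises was not tested. Of the stellate cell and fibroblast markers, Col1a1 had 0 counts and Des 3 counts in TdTomato, so the calls of Col1a1 and Des are no support for that count.

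The glutathione S-transferases, which conjugate glutathione to electrophiles, had 5 of 21 tested genes risen and 7 fallen in Yap OE and 1 risen in LATS KO, or 3 without TdTomato 1 and LATS KO 3, Mgst3 among them (log2 1.46, adjusted p = 0.0098, edgeR). Gstm2 rose in LATS KO (log2 1.13 ± 0.31, adjusted p = 0.030, edgeR) and in Yap OE (log2 1.76 ± 0.33, adjusted p = 0.0028, edgeR), and the microsomal Mgst3 rose in Yap OE (log2 1.70 ± 0.41, adjusted p = 0.0087, edgeR). Gstp1, the most abundant, averaged 1217 ± 956 CPM in LATS KO, 593 ± 244 CPM in Yap OE and 2952 ± 1049.7 CPM in TdTomato, and fell in Yap OE (log2 -2.31, adjusted p = 0.0094, edgeR). Gsto1 and Gstt3 also fell in Yap OE (log2 -1.58 and -2.33, adjusted p = 0.0054 and 0.0083, edgeR), and Gstt3 was lower in Yap OE than in LATS KO (log2 -2.41, adjusted p = 0.042, edgeR). Members of these families have near-identical copies, and reads that map to several places were not counted, so single values are uncertain.

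In the thioredoxin and peroxiredoxin system 2 of 14 genes fell in Yap OE, the mitochondrial Prdx3 and Txn2 (log2 -0.77 and -1.18, adjusted p = 0.015 and 0.016, edgeR). The cytosolic Txn1 and Prdx1 had -0.96 and -0.66 in Yap OE without passing (adjusted p = 0.13 and 0.14, edgeR), and the list's median was -0.44, or -0.27 with RLE factors. In LATS KO edgeR called 0 of the 14, with 1, Prdx6, at an unadjusted p under 0.05, DESeq2 called 1 higher, and voom 1 higher and 1 lower. Of all genes DESeq2 called 19.4% higher there, and voom 16.1% higher and 10.7% lower.

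The NADPH supply, on which glutathione and thioredoxin reduction depend, had 1 of 9 genes risen and 5 fallen in Yap OE, or 1 and 2 with RLE factors. Idh2, the mitochondrial isocitrate dehydrogenase, averaged 227 ± 84.8 CPM in LATS KO, 302 ± 57.7 CPM in Yap OE and 113 ± 19.3 CPM in TdTomato and rose in both (log2 1.01 and 1.42, adjusted p = 0.029 and 0.0040, edgeR). Its call in LATS KO was lost without TdTomato 1 and LATS KO 3 (log2 0.92, adjusted p = 0.060, edgeR). Me1, the malic enzyme, Aldh1l1, a folate dehydrogenase, and Pgls of the pentose phosphate pathway fell in Yap OE (log2 -1.43, -2.17 and -1.20, adjusted p = 0.0069, 0.013 and 0.037, edgeR), the Pgls call being lost with RLE factors and, at -0.57, without TdTomato 1 and LATS KO 3 (adjusted p = 0.13, edgeR). In LATS KO they had -0.49, -0.90 and -0.39, none past the threshold.

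Of the superoxide dismutases and catalase, Sod3, the extracellular form, rose in LATS KO and Yap OE (log2 7.69 and 8.11, adjusted p = 0.0082 and 0.0033, edgeR), at 1.15 to 111 CPM in LATS KO, 27.3 to 95.03 CPM in Yap OE and at most 0.397 CPM in TdTomato. The cytosolic Sod1 and mitochondrial Sod2 fell in Yap OE (log2 -1.65 and -1.58, adjusted p = 0.016 and 0.0057, edgeR), and Cat had -1.25 without passing (adjusted p = 0.061, edgeR). Cat was called lower there without TdTomato 1 and LATS KO 3 (log2 -1.40, adjusted p = 0.019, edgeR). The summed level of these 4 genes was 1584, 1089, 1216, 4229, 4284 and 4809 CPM in LATS KO 1 to 6, 1766 to 2125 CPM in Yap OE and 4119 to 5434 CPM in TdTomato. LATS KO 1 to 3 thus lay below the Yap OE libraries and LATS KO 4 to 6 within the TdTomato range. The NADPH list was also low in LATS KO 1 to 3, at 1349, 1380, 1053, 3073, 3143 and 3326 CPM in LATS KO 1 to 6, 1240 to 1530 CPM in Yap OE and 2857 to 3612 CPM in TdTomato. The summed hepatocyte markers of LATS KO 1 to 6 were 87011, 77888, 39759, 164041, 146518 and 170267 CPM, in the same order of low and high libraries. The summed erythroid markers, led by Alas2, a haem synthesis enzyme of red cell precursors, had that order too, at 8.55, 3.01, 20.8, 149.9, 124 and 163 CPM in LATS KO 1 to 6, 6.22 to 18.9 CPM in Yap OE and 133 to 156 CPM in TdTomato. Of the 4 erythroid markers found, 2 were at 0 counts in every TdTomato library, Slc4a1 among them, so the TdTomato sums are those of Alas2 and Klf1 alone. In LATS KO 1 marker was at 0 counts in every library, and so was 1 in Yap OE. The part of hepatocyte and erythroid markers in these sums and in the falls of Sod1, Sod2, Gpx1, Me1, Aldh1l1 and Pgls was not tested.

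**Figure D5:**
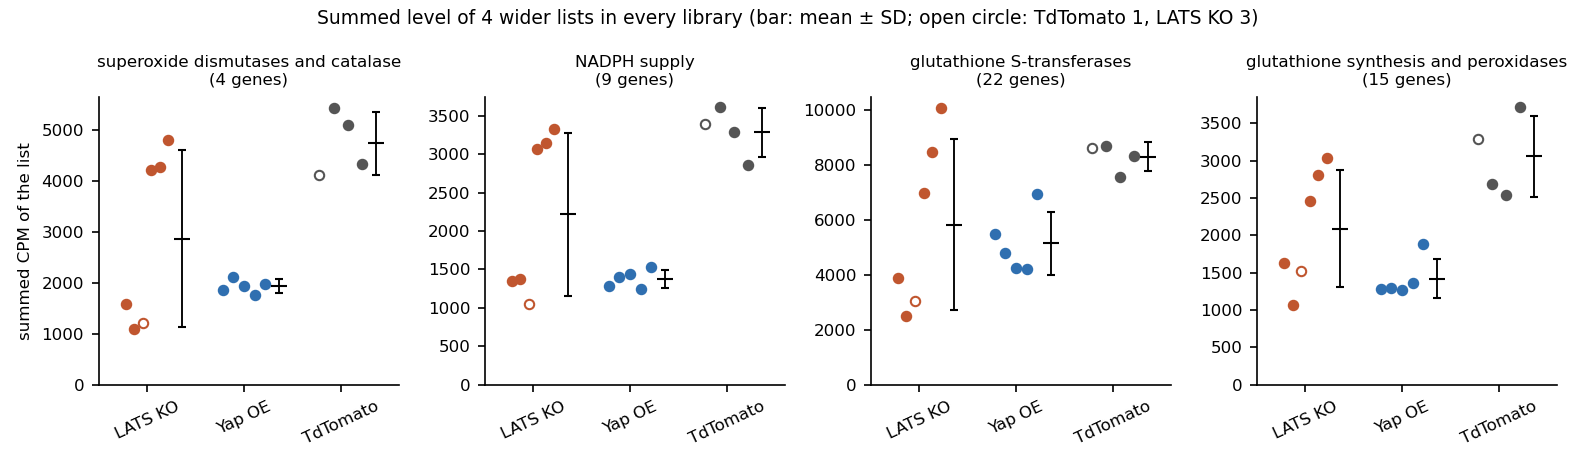
Summed CPM of 4 wider lists in every library (linear axis from 0), with LATS KO, Yap OE and TdTomato side by side, open circles for TdTomato 1 and LATS KO 3, and bars for the mean ± SD. In all 4 lists LATS KO 1 to 3 lie below LATS KO 4 to 6, for superoxide dismutases and catalase at 1089 to 1584 CPM against 4229 to 4809 CPM.

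Among 21 other NRF2-linked genes of detoxification and iron handling, 6 rose and 3 fell in Yap OE and 1 rose in LATS KO. With voom the balance in Yap OE turned, with 7 risen and 11 fallen, and 4 rose and 3 fell in LATS KO. Without TdTomato 1 and LATS KO 3 it was 7 and 5 in Yap OE and 4 and 1 in LATS KO. Abcc4, an exporter of conjugates, rose in LATS KO and Yap OE (log2 4.99 and 5.53, adjusted p = 0.012 and 0.0045, edgeR), and Ephx1, the microsomal epoxide hydrolase, rose in Yap OE (log2 1.08, adjusted p = 0.021, edgeR). Akr7a5, an aldehyde reductase, and Htatip2 fell in Yap OE (log2 -1.65 and -1.11, adjusted p = 0.0086 and 0.0096, edgeR). Ftl1, the ferritin light chain, which has near-identical copies, had -0.80 (adjusted p = 0.12, edgeR).

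ATF4 targets were included because ATF4, the factor of the amino acid stress response, also controls Slc7a11. Of 12 genes, 4 rose and 2 fell in Yap OE and 3 rose in LATS KO. Phgdh and Vldlr, at 2 counts each over TdTomato, passed the filter only through groups in which they were higher, so their calls are no support for these counts. Phgdh and Psat1, of serine synthesis, rose in both. Phgdh had 2124 counts in LATS KO, 7134 counts in Yap OE and 2 counts in TdTomato, a CPM ratio of 599 (95% interval 166 to 4950.0) in LATS KO and 1647 (456 to 13602) in Yap OE, and Psat1 averaged 23.0 ± 23.9, 44.5 ± 28.1 and 0.495 ± 0.483 CPM in those groups (log2 5.50 and 6.46 against TdTomato, adjusted p = 0.014 and 0.0044, edgeR). Vldlr, a lipoprotein receptor, was also higher in Yap OE than in LATS KO (log2 6.13 ± 0.68, adjusted p = 0.00095, edgeR), at 22.3 to 39.7 CPM in Yap OE and at most 0.920 CPM in LATS KO. Shmt2 and Cebpb fell in Yap OE (log2 -1.73 and -1.20, adjusted p = 0.0035 and 0.019, edgeR).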

How the data were processed

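The authors deposited raw counts per gene for each of the 15 liver libraries, as whole numbers in STAR's layout of an unstranded column and a column per strand. The mm10 genome and the tools FastQC, Trimmomatic and STAR are named per the submitters' processing notes; versions, settings and the annotation are not given in the sources used here. Column 4, for reverse-stranded kits, was used, since the forward column held 0.966% to 1.99% of strand-assigned counts. Lines that name no gene (unmapped, multiply mapped, unassigned and ambiguous reads) held 14.2% to 92.5% of a library and stayed out of library sizes and tests. Counting took no reads that map to several places, so near-identical copies are uncertain. No pair of libraries of a group differed only by sampling noise.

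CPM are counts over TMM-scaled library sizes, also given per kilobase with exon lengths of GENCODE M21 (GRCm38, the assembly also called mm10), which also gave coordinates. The filter was filterByExpr with its defaults. The test was edgeR 4.0.16's quasi-likelihood test in R 4.3.3 (estimateDisp, robust glmQLFit, glmQLFTest), with all 15 libraries in a single fit, the group as its term and 12 residual degrees of freedom, two-sided, Benjamini-Hochberg adjusted over all 13055 genes, threshold 0.05. SE was derived from the log2 fold change and its F statistic. Where a group had 0 counts, the fold used 3 counts over the group, and a ratio to 1 to 3 counts has an exact 95% interval, both for counting error only. Likeness used log2 CPM (prior count 2) of genes whose mean CPM reached 5.

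The 8 related lists and 8 lists of cell type markers held 172 symbols with the members, of which 1 had no row. The members, lists and tests, and the fit without TdTomato 1 and LATS KO 3, were chosen with earlier results of these data known. Named from each related list were up to 4 genes with the smallest adjusted p over the comparisons and the most abundant gene. Promoter sequences are RefSeq's for GRCm38.p6. The 250 bases before each start were searched on both strands.

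Alternatives were RLE factors, DESeq2 1.42.0, limma 3.58.1 voom with quality weights, no filter or one of 1 CPM in 4 libraries, the unstranded column, a fit of just the 2 groups, a block on the replicate number, and leaving out libraries. The procedure was tested on simulated counts with 200 of 13055 genes changed. For LATS KO against TdTomato it recovered 6% of 2-fold, 52% of 4-fold and 70% of 8-fold changes, for Yap OE against TdTomato 8%, 46% and 62%, and for Yap OE against LATS KO 6%, 48% and 72%, with 3, 1 and 6 false calls.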

Additional observations from a re-analysis of the deposited data

Results flagged for a closer look

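In 6 of 30 groups of a member's values, 1 library stood far from the others, where chance gives about 1 in 20 groups; the members share the same libraries. Nfe2l2 was at 124.7 CPM in LATS KO 1, above 75.5 to 88.4 CPM in the other LATS KO libraries. Hmox1 was at 99.9 CPM in LATS KO 2, and the next LATS KO library was at 20.4 CPM. Slc7a11 was at 0.921 CPM in LATS KO 2, where the other LATS KO libraries were at 0.271 CPM or at 0, and at 1.23 CPM in Yap OE 1, where the others were at 0.449 CPM or less. In TdTomato 1, the control library with 78.5% of reads unmapped, Gclm was at 84.9 CPM and Txnrd1 at 118 CPM, below at least 203 CPM and 182 CPM in the other TdTomato libraries. LATS KO 2 was also the library with the highest summed macrophage and Kupffer cell markers.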

How the results depend on the processing

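Of 702 member values over 24 alternatives, 655 kept their direction and their side of the threshold, 31 gained the call, 10 lost it and 6 reversed. The reversed ones belong to members without a call. With voom Txnrd1 was -0.24 in LATS KO and -0.046 in Yap OE against TdTomato and 0.19 in Yap OE against LATS KO, and Srxn1 was -0.42 in LATS KO; Txnrd1 in Yap OE was -0.0292 without TdTomato 1 and LATS KO 3, and -0.029 to 0.18 without each library, negative without TdTomato 1. Members called in LATS KO against TdTomato were 1 with RLE (Nfe2l2), 4 with DESeq2 (Nfe2l2, Nqo1, Hmox1, Osgin1), 1 with voom (Hmox1), 1 without TdTomato 1 and LATS KO 3 (Hmox1), and 0 to 1 without each library. In Yap OE against TdTomato they were 7 with DESeq2, 7 with voom and 2 to 5 without each library. DESeq2 and voom each had 6 of these higher and 1 lower, and called 38.5% and 67.9% of all genes. In Yap OE against LATS KO members called were 3 with DESeq2 and 8 with voom, 6 higher and 2 lower, beside 5.97% and 56.1% of all genes. They were 2 without TdTomato 1 and LATS KO 3, 0 with the block and 1 to 2 without each library. Genes called in LATS KO against TdTomato were 1438, and 2894 with DESeq2, 3501 with voom, 1 in a fit of only the groups compared, 740.0 with the block, 2245 without TdTomato 1 and LATS KO 3 and 588 to 1798 without each library. In Yap OE against TdTomato they were 3744, and 8868 with voom, 6416 without TdTomato 1 and LATS KO 3 and 2585 to 4973 without each library. In Yap OE against LATS KO they were 129, and 779 with DESeq2, 7325 with voom, 13 with the block, 1688 without TdTomato 1 and LATS KO 3 and 36 to 389 without each library. RLE moved the median of all genes to 0.21 in LATS KO and 0.34 in Yap OE against TdTomato, from 0.13 and 0.17 with TMM. The labels state no pairing by replicate number, and deviations from the group means do not settle whether there was one. Of 13 pairs with the same number 4 had a correlation of deviations over 0.1. In 4 of 26 comparisons of a library with another group its own number matched best. Of the called genes named from the wider lists, all 10 in LATS KO and all 30 in Yap OE against TdTomato kept their sign with RLE, DESeq2 and voom. Voom lost Psat1, Phgdh and Gstm2 in LATS KO, and RLE lost Mafg and Pgls in Yap OE. The fit of only LATS KO and TdTomato called 1 gene in all, so at most 1 of those 10 could stay called there. With the replicate number as a block Nqo1 in Yap OE (log2 3.38, adjusted p = 0.061) and Osgin1 in Yap OE against LATS KO were no longer called. The causes were not tested. Slc7a11 was near the limit of detection, Nqo1 and Hmox1 were at 0 counts in TdTomato 1, and changes of 2-fold were seldom recovered in simulated data.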
